A study of Mus musculus with 2 samples.

Results

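The genes described here build the inflammasome and carry out pyroptosis: the sensors Nlrp3, Nlrp1a, Nlrp1b and Nlrc4, the kinase gene Nek7, the adaptor gene Pycard, the caspase genes Casp1, Casp4 and Casp8, and the pore-forming gasdermin gene Gsdmd. They were chosen by symbol, all 10 matched, each to 1 gene identifier, and they stand among 55536 annotated genes. Chromatin-bound RNA, depleted of ribosomal RNA, had been sequenced from mouse bone-marrow-derived macrophages of strain C57BL/6J in 2 libraries of 1 group. The cells were primary cells whose sex and age were not collected. Both libraries had the same exposure to lipid A, the part of bacterial lipopolysaccharide that Toll-like receptor 4 recognizes: 100 ng/ml for 12 h, then 12 h after washing it out, then 100 ng/ml once more for 75 min. The labels number them as biological replicates 1 and 2, made from 250 and 500 ng of RNA, and give both the same donor entry, so the spread between them may in part be technical. The alignment-based table held 18388793 counts on annotated genes in replicate 1 and 17640464 in replicate 2. Cells without lipid A or without the second dose were not analysed here, so none of the values below is a response. Each is a level in the chromatin-bound RNA of restimulated cells. RNA of the rest of the cell and protein were not analysed here. All 8 macrophage markers reached 1 TPM in both libraries, against 1 of 20 markers, by the alignment-based table, of neutrophils, B cells, T cells, erythroid cells, fibroblasts and dendritic cells. That one was the heme synthesis gene Alas2, with 29.1 and 9.36 counts, and the neutrophil genes Ly6g, Elane and Mpo had 0 counts in this table. By an alignment-free program 7 of these 20 reached 1 TPM (a length-scaled abundance) in both libraries, namely Mpo, Ms4a1, Cd3d, Cd8a, Alas2, Col1a1 and Zbtb46. The highest was the T cell marker Cd3d, at 15.5 and 20.1 TPM against 2 and 0 counts by alignment.

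An inflammasome is a protein platform that assembles when a cytosolic sensor detects infection or damage. NLRP3 responds to many membrane and ion disturbances and needs the kinase NEK7, NLRC4 answers to bacterial flagellin and secretion-system proteins that NAIP receptors bind, and the NLRP1 proteins sense pathogen proteases. The adaptor ASC, encoded by Pycard, links sensors to caspase-1, which matures interleukin-1 beta and interleukin-18 and cleaves gasdermin D into a pore. Caspase-4 of the mouse binds cytosolic lipopolysaccharide directly and cleaves gasdermin D on its own, and caspase-8 links death receptors to both apoptosis and the inflammasome. In macrophages, Nlrp3 and Casp4 are known as genes that Toll-like receptor signals raise, while several of the other parts are made at rest.

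Promoter windows of 300 bases, from 250 bases before to 50 after a transcript start, were found for 9 of the 10 genes in the RefSeq set for GRCm38.p6. Gsdmd had no entry. The first pair is shown because the neighbouring paralogs Nlrp1a and Nlrp1b had closely similar windows and very different levels, with capitals for the bases that differ in the alignment or stand opposite a gap inside it:
Nlrp1a, chr11:71144655-71144954, minus strand: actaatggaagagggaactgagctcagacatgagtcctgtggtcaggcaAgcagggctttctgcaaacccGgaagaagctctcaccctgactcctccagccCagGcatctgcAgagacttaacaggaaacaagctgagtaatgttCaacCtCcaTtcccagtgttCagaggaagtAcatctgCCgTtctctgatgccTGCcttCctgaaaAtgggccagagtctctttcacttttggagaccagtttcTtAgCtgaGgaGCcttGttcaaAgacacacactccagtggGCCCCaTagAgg
Nlrp1b, chr11:71230684-71230983, minus strand: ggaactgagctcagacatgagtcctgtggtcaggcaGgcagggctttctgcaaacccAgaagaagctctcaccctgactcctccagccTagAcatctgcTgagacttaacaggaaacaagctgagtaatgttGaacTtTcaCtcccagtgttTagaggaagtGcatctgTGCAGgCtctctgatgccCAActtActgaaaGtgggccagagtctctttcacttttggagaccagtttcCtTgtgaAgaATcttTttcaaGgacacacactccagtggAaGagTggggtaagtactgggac
Of 282 aligned bases in this pair, 253 were identical (89.7%), with 8 gap columns. The pair of different genes with the next most identical bases among the members' windows had 174 (67.2% identity).

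A further set is shown for the highest genes, Nlrp3 with both of its RefSeq starts and Casp4. Capitals mark matches of a loose NF-kB-like pattern on either strand (GGG, any 5 bases, CC), where adjoining matches may overlap:
Nlrp3 upstream start, chr11:59541319-59541618, plus strand: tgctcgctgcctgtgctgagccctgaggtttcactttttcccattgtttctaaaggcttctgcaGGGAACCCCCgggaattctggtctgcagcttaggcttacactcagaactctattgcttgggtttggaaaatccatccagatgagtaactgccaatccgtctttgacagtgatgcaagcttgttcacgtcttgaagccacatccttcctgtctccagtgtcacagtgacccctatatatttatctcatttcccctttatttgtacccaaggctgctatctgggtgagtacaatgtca
Nlrp3 downstream start, chr11:59542436-59542735, plus strand: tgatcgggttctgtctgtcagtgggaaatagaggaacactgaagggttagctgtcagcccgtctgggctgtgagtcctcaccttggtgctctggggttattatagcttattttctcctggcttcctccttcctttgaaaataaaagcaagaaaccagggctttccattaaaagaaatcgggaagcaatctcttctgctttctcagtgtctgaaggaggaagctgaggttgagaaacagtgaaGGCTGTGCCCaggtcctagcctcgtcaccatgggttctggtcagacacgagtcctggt
Casp4, chr9:5308599-5308898, plus strand: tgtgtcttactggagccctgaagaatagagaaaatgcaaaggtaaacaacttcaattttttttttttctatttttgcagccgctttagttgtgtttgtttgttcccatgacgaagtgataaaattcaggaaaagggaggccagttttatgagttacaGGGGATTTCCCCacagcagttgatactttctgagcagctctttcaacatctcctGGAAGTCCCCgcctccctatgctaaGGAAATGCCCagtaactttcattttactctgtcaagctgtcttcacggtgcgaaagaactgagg
The Casp4 window held 5 matches, 3 of them overlapping at one place, and each Nlrp3 window held 1. Over the members, 6 of 12 windows held the pattern, as did 50.8% of 32851 windows of all genes. Another Casp4 window, with 289 bases identical to the printed one, held the same 5 matches. By gene, 4 of 9 members held the pattern: Casp4, Nlrp3, Casp1 with 1 match and Nek7, among the lowest in level, with 3. No window of Nlrp1b, Nlrp1a, Nlrc4, Pycard or Casp8 held it. No such share by gene was computed over all genes. None of the 12 held the interferon-response-like pattern (GAAA, any 2 bases, GAAA), searched on both strands, which 3.44% of all windows held. Such matches are descriptions of the letters only.

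Among the sensors, Nlrp3 was far above the rest. Levels are in TPM, an abundance that divides a gene's reads by its transcript length and scales them to the same total in each library, so that genes can be compared. Nlrp3 (ENSMUSG00000032691.14, chromosome 11, 59541568 to 59566956 in mm10, plus strand) had 375.5 TPM in replicate 1 and 480.8 in replicate 2, from 23856 and 27641 counts. Its mean of 428 ± 74.4 TPM (SD, n = 2) ranked 49 among 9615 protein-coding genes that reached 1 TPM in either library. Nlrp3 alone held 44.6% of the summed TPM of all 10 genes in replicate 1 and 48.2% in replicate 2.

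Nlrp1b (ENSMUSG00000070390.12, chromosome 11, 71153102 to 71230733, minus strand) was second among the member sensors, at 73.3 and 83.5 TPM, a mean of 78.4 ± 7.24. Its paralog Nlrp1a (ENSMUSG00000069830.10, 71092236 to 71144704, same strand) had 0.71 and 0.53 TPM from 43 and 29 counts. Nlrp1b was thus 103-fold higher than Nlrp1a in replicate 1 and 158-fold in replicate 2, or 48.5-fold and 69.4-fold by the alignment-free program. The genes are neighbours, since Nlrp1b starts 8398 bases past the end of Nlrp1a on the chromosome. At the similar windows printed above, the isoforms starting there had 38.0 and 48.1 TPM for Nlrp1b and 0.71 and 0.53 for Nlrp1a by alignment. By the alignment-free program they had 33.4 and 36.7 TPM for Nlrp1b and 0.38 and 0.077 for Nlrp1a. That program put more of Nlrp1a, 0.76 and 0.83 TPM, at another start. Nlrp1a had too few reads to divide between its starts. Their transcripts shared 76 stretches of 50 bases, 1.79% of those in Nlrp1a, and the deposited posterior SD of both gene counts was 0. The third gene of the cluster, the pseudogene Nlrp1c-ps (71242430 to 71285232), had 42.9 and 47.3 TPM.

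Nlrc4 (ENSMUSG00000039193.9, chromosome 17, 74425438 to 74459142, minus strand) had 11.1 TPM in replicate 1 and 6.58 in replicate 2, from 674 and 374 counts. This placed it near the middle of expressed protein-coding genes, whose median was 7.99 TPM. Nlrp3 exceeded Nlrc4 by 33.8-fold in replicate 1 and 73.1-fold in replicate 2. The NAIP receptors that lie before Nlrc4 in its pathway were higher than Nlrc4 itself, with Naip6 at 50.5 and 42.2 TPM, Naip5 at 40.5 and 35.6 and Naip2 at 19.9 and 18.6. Naip1 was low, at 1.14 and 0.41 TPM. The Naip genes are close paralogs with fractional counts, so the split of reads among them is uncertain.

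The partners of the sensors had low levels in this chromatin-bound RNA. Pycard (ENSMUSG00000030793.4, chromosome 7, 127989708 to 127993867, minus strand) had 4.77 and 3.56 TPM from 289.8 and 196.1 counts. Nek7 (ENSMUSG00000026393.10, chromosome 1, 138482875 to 138620141, minus strand) had 3.82 and 2.81 TPM from 217 and 151 counts. Their libraries overlapped, so Pycard and Nek7 were not set apart, and the alignment-free program placed Nek7 first. Nlrp3 was 78.7-fold and 135-fold above Pycard in replicates 1 and 2, and 98.3-fold and 171-fold above Nek7. By the alignment-free program it was 83.2-fold and 107-fold above Nek7.

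The structure of these loci is described beside those levels, and its part in them was not tested. All reads of Pycard were assigned to Pycard-201, an isoform of 3800 bases with 579 coding bases, in 3 exons of which the longest has 3258 bases. The exons of Pycard cover 91.3% of its locus, and its TPM is divided by that long transcript. The shorter Pycard-202 (493 bases) received no reads from either program (0 counts). On the opposite strand, the unconfirmed transcript Gm45205 overlaps 485 exon bases of Pycard and had 12.2 and 9.86 counts. In Nek7, exons cover 5.37% of a locus of 137 kb. Its introns hold 2 unconfirmed same-strand transcripts, Gm37101 with 191 and 314 counts and Gm37080 with 77 and 109, so Gm37101 alone had more counts than Nek7 in replicate 2. An intron of Casp8 holds another, Gm37760, with 538 and 408 counts against 500 and 329 for Casp8 itself.

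The caspase genes covered a wide range, with Casp4 on top. Casp4 (ENSMUSG00000033538.13, chromosome 9, 5308828 to 5336783, plus strand) had 180.0 and 272.6 TPM from 2607 and 3600 counts, a mean of 226 ± 65.5 and rank 185. Casp1 (ENSMUSG00000025888.5, 5298517 to 5307265, plus strand) ends 1563 bases before Casp4 begins and had 42.4 and 35.4 TPM from 901 and 688 counts. Casp4 was 4.24-fold above Casp1 in replicate 1 and 7.71-fold in replicate 2. The next gene of this cluster, Casp12, had 7 counts in each library.

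Casp8 (ENSMUSG00000026029.14, chromosome 1, 58795374 to 58847503, plus strand) had 15.8 and 11.6 TPM, a mean of 13.7 ± 2.97. Casp1 was 2.68-fold and 3.04-fold above it. Gsdmd (ENSMUSG00000022575.5, chromosome 15, 75862327 to 75867408, plus strand), the target that Casp1 and Casp4 proteins cut, had 134.1 and 99.9 TPM from 2037 and 1388 counts. At a mean of 117 ± 24.2 TPM it ranked 430. Gsdmd was 28.1-fold above Pycard in each library.

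In descending order of mean TPM the genes were Nlrp3, Casp4, Gsdmd, Nlrp1b, Casp1, Casp8, Nlrc4, Pycard, Nek7 and Nlrp1a. Only for Pycard and Nek7 did neighbours in this order overlap between libraries. The gap was also small between Casp8, lowest at 11.6 TPM, and Nlrc4, highest at 11.1. By counts, which are not divided by transcript length, the order differed. Nlrp1b (4826 and 5065 counts) then stood above Casp4 (2607 and 3600) and Gsdmd (2037 and 1388). Nlrc4 (674 and 374) stood above Casp8 (500 and 329). Of the 10 genes, 9 reached 1 TPM in both libraries, as did 40.1% of all 22028 protein-coding genes. Their median was 26.3 ± 3.97 TPM (SD between the medians of the libraries), and 7 of the 10 lay above the median of expressed protein-coding genes. In bulk RNA, fewer cells transcribing a gene and less RNA per cell cannot be told apart.

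**Figure D1:**
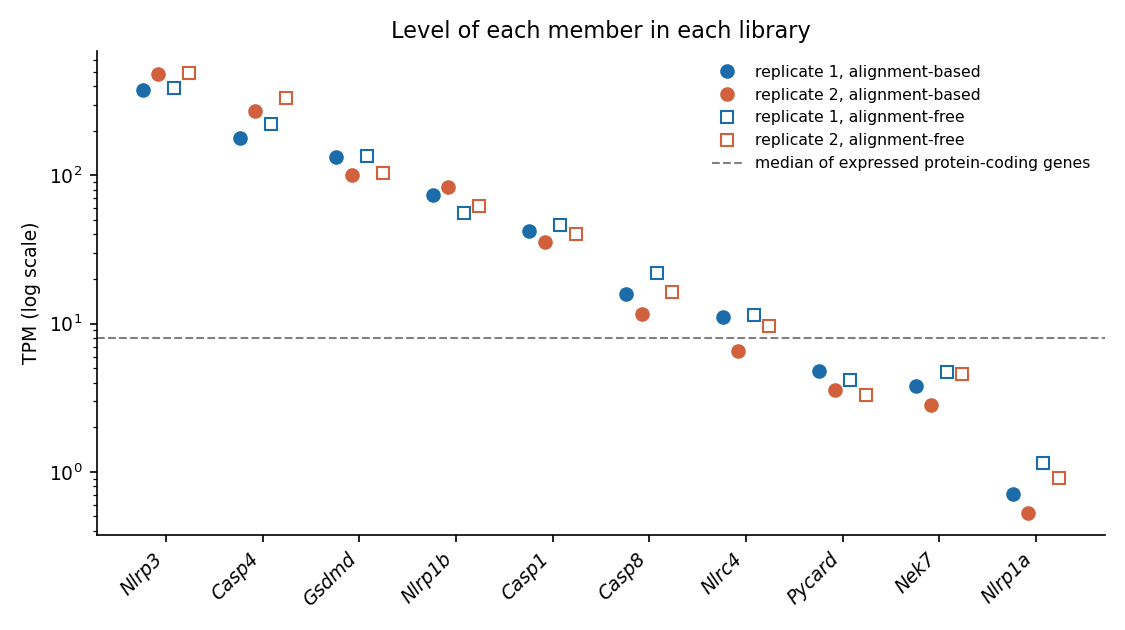
TPM of each member on a log axis, with filled circles for the alignment-based and open squares for the alignment-free program, blue for replicate 1 and orange for replicate 2. Nlrp3 is highest and Nlrp1a lowest in all 4 series, and the dashed line marks the median of expressed protein-coding genes, 7.99 TPM.

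Much of the signal of Casp4, Gsdmd and Nek7 was assigned to isoforms annotated as keeping an intron. These 3 of the 10 genes have such isoforms in the annotation. The retained-intron share of TPM was 66.5 ± 2.50% for Casp4, 59.0 ± 0.454% for Gsdmd and 56.1 ± 1.93% for Nek7 (SD, n = 2). Each exceeded 50%, as did 41.8% of 5998 protein-coding genes with an isoform of this class and a mean level of 1 TPM or more. By counts, which are not divided by isoform length, the shares were 48.0% for Casp4, 34.6% for Gsdmd and 39.7% for Nek7. By the alignment-free program they were 71.2% for Casp4, 56.7% for Gsdmd and 38.3% for Nek7. The isoforms read across exon-intron boundaries, and 1 of 7 kept a whole intron, the intron 9 of Gsdmd in Gsdmd-206 (chr15:75866691-75866789, 99 bases).

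The boundaries are printed to show which letters set these isoforms apart from spliced RNA. Each line gives 30 bases, with exon in lower case and intron in capitals, followed by the spliced junction of the main coding isoform for the first:
Casp4-207, acceptor of intron 3, chr9:5323610-5323639, plus strand: GTCTAATTTAAACAGatttacccaataaag
Casp4-201, the same junction spliced: gaaaagacacaagaaatttacccaataaag
Casp4-202, donor of intron 7, chr9:5328528-5328557, plus strand: gatatattcctgaagGTGAATGCTTTGCAG
Gsdmd-204, acceptor of intron 3, chr15:75864934-75864963, plus strand: GCAATCTTTCTGTAGgcaccttcagcagcc
Gsdmd-206, donor of intron 9, chr15:75866676-75866705, plus strand: tgggagcactggctgGTGAGCAGCTCGAGG
Nek7-204, donor of intron 7, chr1:138515610-138515639, minus strand: ctgcacattctttagGTAAGAGGCATGATT
Introns are numbered along the coding isoform of highest TPM, and reads from precursor RNA that is not yet spliced cross the same boundaries. The shares therefore do not separate a stably kept intron from unspliced RNA.

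Casp4-207, which carries 277 bases of intron 3, had the highest alignment-based TPM of the Casp4 isoforms, at 57.3 and 87.9. By the alignment-free program Casp4-205 was above it (70.3 and 101.7 against 57.7 and 86.6 TPM), and by alignment-based counts Casp4-201 was (779.0 and 1321.3 against 485.0 and 697.6). The full coding isoform Casp4-201 had 38.6 and 71.4 TPM, and Casp4-204, annotated for nonsense-mediated decay and holding 1038 bases of intron 6, had 18.1 and 24.8. Casp4-205 had 32.8 and 49.0 TPM from only 68.4 and 103.4 counts, and is 365 bases long. Coding isoforms made up 23.8 ± 3.36% of Casp4 TPM. Taken alone, Casp4-201 lay below Casp1 in replicate 1 and above it in replicate 2. In Gsdmd the coding isoform Gsdmd-201 had 50.8 and 36.8 TPM, close to Gsdmd-204 at 46.0 and 35.1. In Nek7 the isoform Nek7-204, with 1880 bases of intron 7, had 2.09 and 1.62 TPM and the coding Nek7-202 had 0.96 and 1.11.

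**Figure D2:**
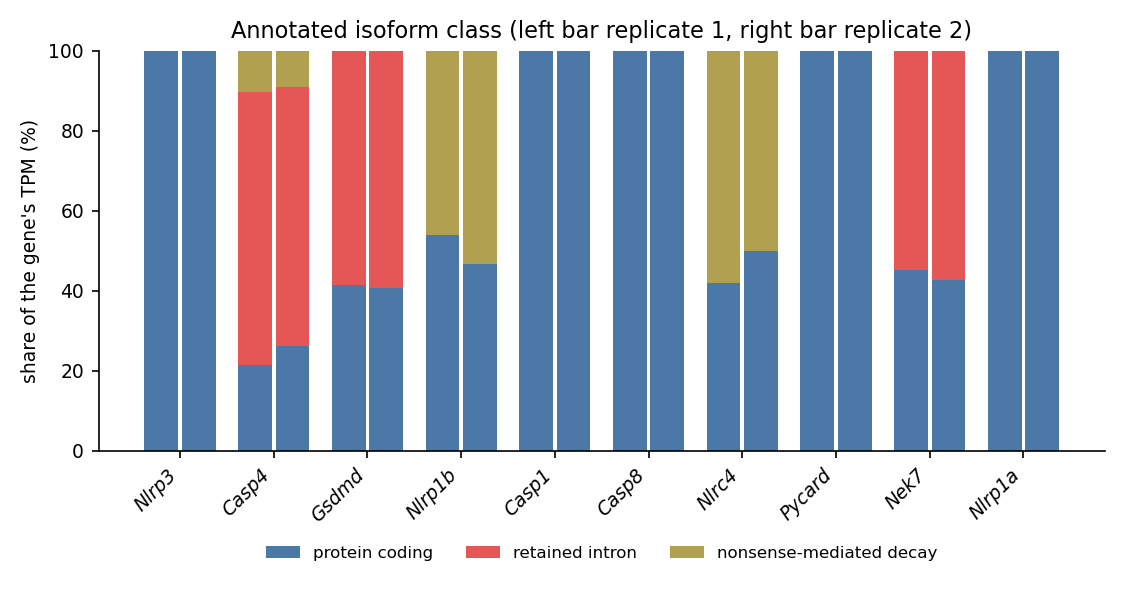
Share of each gene's TPM by annotated isoform class, in percent, as stacked bars for replicate 1 (left) and replicate 2 (right) of each gene, by the alignment-based program. Casp4, Gsdmd and Nek7 are mostly retained intron in both libraries, and Nlrp1b and Nlrc4 are divided between coding isoforms and isoforms annotated for nonsense-mediated decay.

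For the sensors, the split between isoforms was less certain than the gene levels. Nlrp3-201, from the upstream start, had 259.4 and 351.7 TPM and Nlrp3-202, from the downstream start, 116.1 and 129.05 TPM, or 71.1% and 28.9% of the gene on average. Only 36 bases of Nlrp3-201 and 71 bases of Nlrp3-202 are in no other isoform of the gene, and the deposited posterior SD of their counts in replicate 1 was 381.9 and 382.2. The alignment-free program gave 40.0% to Nlrp3-201, 35.7% to Nlrp3-202 and 24.3% to Nlrp3-203. Nlrp3-203 is a 676-base fragment with no base of its own that had 0 counts by alignment.

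Nlrp1b-205, annotated for nonsense-mediated decay, led its gene by both programs, with 49.6 ± 5.14% of TPM by alignment and 58.7 ± 1.96% without it. Nlrc4 also differed between programs. Its isoform Nlrc4-202 is annotated for nonsense-mediated decay. It has no base of its own, but 49 of its stretches of 50 bases (1.60%) are in no other isoform of the gene. Nlrc4-202 held 54.1 ± 5.55% of TPM by alignment and 7.62 ± 5.37% by the alignment-free program, which gave 89.8% to the coding Nlrc4-201. The few Nlrp1a reads all went to Nlrp1a-202 by alignment, while the alignment-free program gave 79.1% to Nlrp1a-201. In Casp8 the leading isoform by alignment-based TPM was Casp8-202, at 7.04 and 8.27, and Casp8-201 had 5.41 and 2.84. By alignment-based counts Casp8-201 led in replicate 1, at 216.1 against 200.3 for Casp8-202. The alignment-free program gave 38.8% of Casp8 to Casp8-202 and 38.9% to Casp8-204.

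**Figure D3:**
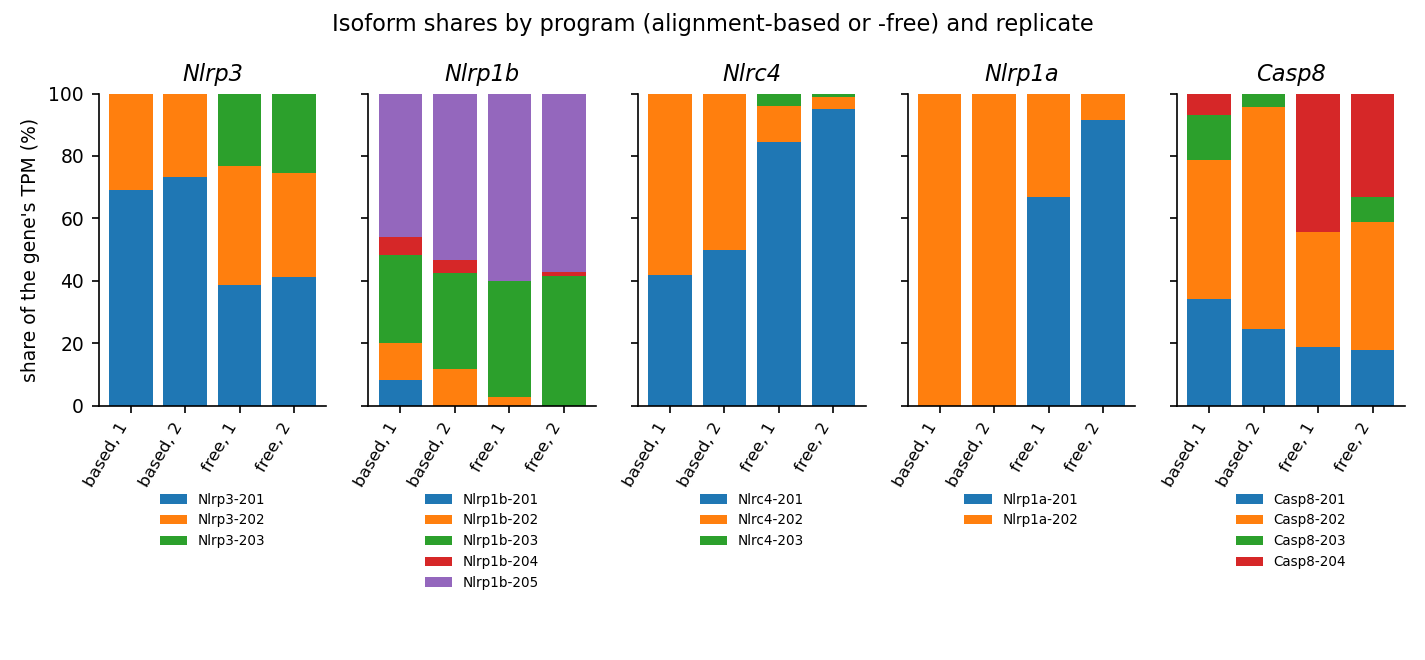
Share of gene TPM by isoform, in percent, for Nlrp3, Nlrp1b, Nlrc4, Nlrp1a and Casp8, with 4 bars a gene for the alignment-based and alignment-free programs in replicates 1 and 2. The bars of 1 program are alike between libraries for Nlrp3, and they change between programs for Nlrp3, Nlrc4, Nlrp1a and Casp8.

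In mean TPM, the gene totals of the members differed by less than 2-fold between programs. For 4 of them, Nlrp1a, Nlrp1b, Casp8 and Nek7, this difference exceeded the alignment-based SD between libraries. Of the 9 members with a mean of 1 TPM or more, 0 differed 2-fold between programs, against 18.9% of 9283 protein-coding genes at that level. The widest of these 9 was Nek7, 1.40-fold higher by the alignment-free program (4.69 and 4.59 TPM). Casp8 followed at 1.40-fold and Nlrp1b was lower, at 0.755 of its alignment-based level. Nlrp1a, below 1 TPM, was 1.65-fold higher.

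Between the replicates the genes split into 3 that were higher in replicate 2 and 7 that were lower, where 50.3% of all genes with 10 counts in each library were higher. These are differences between libraries of 1 condition, with 1 library on each side, and carry no test. On TMM-scaled counts the log2 ratio of replicate 2 over replicate 1 was 0.60 for Casp4 (95% counting interval 0.53 to 0.67), 0.35 for Nlrp3 (0.32 to 0.37) and 0.20 for Nlrp1b (0.15 to 0.26). It was lowest for Nlrc4, at -0.72 (-0.90 to -0.53). By the alignment-free program the ratio of Nlrc4 was -0.26, that of Nek7 -0.06 and that of Nlrp1b 0.12, and scaling by total counts gave 0.13 for Nlrp1b. The other 6 lay between -0.47 for Casp8 and -0.26 for Casp1, with Gsdmd at -0.42, Pycard at -0.43, Nlrp1a at -0.44 and Nek7 at -0.39. The interval for Nlrp1a, -1.17 to 0.28, included 0, and those of the other 9 did not. These intervals cover counting error only, so excluding 0 does not make a difference certain. For Nek7 the interval was -0.70 to -0.08, and the alignment-free ratio of -0.06 lay outside it.

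None of the 10 genes (0) reached 2-fold, a size that 7.27% of 13227 genes with 10 counts in each library reached. Casp4 and Nlrc4 passed 1.5-fold, as did 24% of those genes. The Casp4 call rested on TMM scaling, since its log2 ratio was 0.58 with DESeq2 size factors, 0.53 with total counts and 0.47 by the alignment-free program, all under 1.5-fold. Neither gene passed by the alignment-free program. The median log2 ratio of the 10 was -0.41, against 0.0037 over all genes. As the ratios of Nlrp3 and Nlrc4 point opposite ways, their proportion differed between libraries by 1.06 on the log2 scale, or 0.51 by the alignment-free program. That of Casp4 to Gsdmd differed by 1.02, or 0.93 by the alignment-free program. Of the 8 macrophage markers 5 were lower in replicate 2, among them Adgre1 with 16807 and 6321 counts and Itgam with 2189.9 and 637, while Cd14 was higher (871 and 1284). The summed counts of the 20 markers of other cells were 126.1 and 129.3. The part of these shifts in the members' ratios was not tested.

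**Figure D4:**
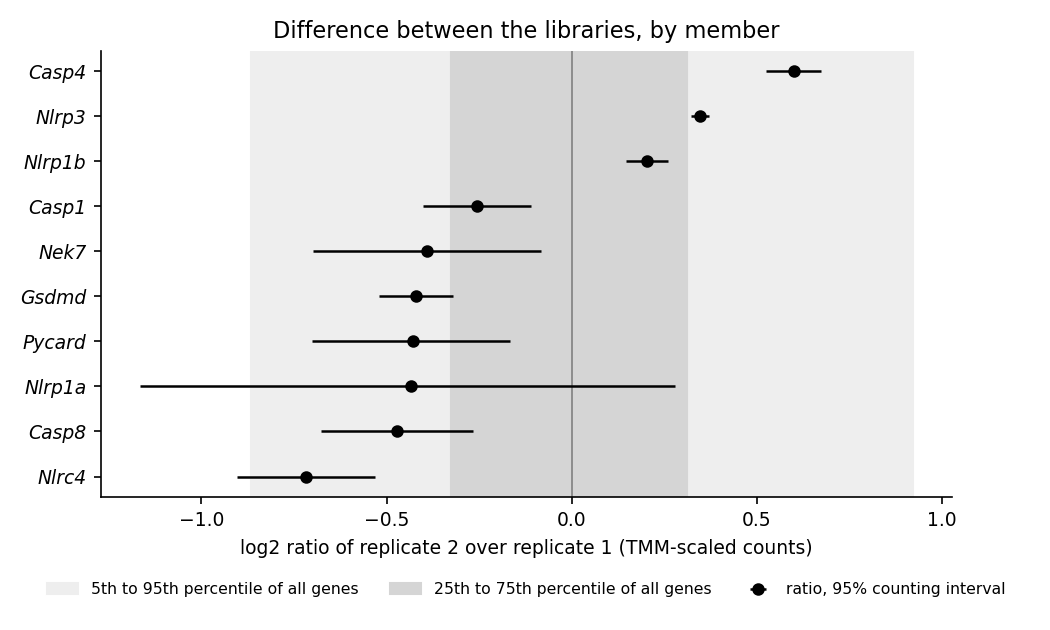
Log2 ratio of replicate 2 over replicate 1 for each member (points) with its 95% counting interval (bars), over bands that hold the 25th to 75th (dark grey) and 5th to 95th percentiles (light grey) of all genes. Casp4, Nlrp3 and Nlrp1b lie above 0 and the other 7 below, all inside the 5th to 95th percentile range of -0.87 to 0.92.

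Other genes of the pathway were taken from a list of 39, of which 38 matched and 30 reached 1 TPM in both libraries. Among sensors and NAIP receptors 7 of 11 did. The highest were Aim2, which senses cytosolic DNA, at 85.5 and 92.9 TPM, and Mefv, which encodes pyrin, at 66.6 and 62.1. Nlrp12 was lowest, with 0 counts in both libraries by alignment, where a count of 0 allows up to 3, but 1.65 and 2.17 TPM by the alignment-free program. Among caspases and death adaptors 9 of 10 did. Cflar, an inhibitor of caspase-8 whose gene lies near Casp8, was highest at 312.2 and 445.3 TPM, and the nucleic acid sensor Zbp1 followed at 104 and 114. Casp12 was lowest at 0.23 and 0.32 TPM.

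Among substrates and pore-related genes 5 of 7 reached 1 TPM. The cytokine precursors Il1b and Il1a were the highest and, with Ninj1, which ruptures the membrane after pore formation, they had means of 169.7, 127.6 and 33.7 TPM. Gsdma and Gsdmc had 0 counts in both libraries by alignment, and Gsdme had 2.17 and 1.93 TPM, so Gsdmd was the highest of the 4 gasdermin genes looked at. The alignment-free program gave Gsdma 1.23 and 1.42 TPM. Among regulators and triggers 9 of 10 matched genes reached 1 TPM. The guanylate-binding protein genes Gbp5 (506.4 and 719.03 TPM) and Gbp2 (72.6 and 70.5), which act on bacterial membranes before caspase-4, were highest, and the channel gene Panx1 was lowest at 0.49 and 0.19. Of the 31 wider genes with 10 counts in each library, 1 differed 2-fold between them, against 7.27% of 13227 such genes in all. It was Naip1, lower in replicate 2 at a log2 ratio of -1.04, from fractional counts of 74.5 and 33.0. By the alignment-free program Naip1 had 1.80 and 1.21 TPM.

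**Figure D5:**
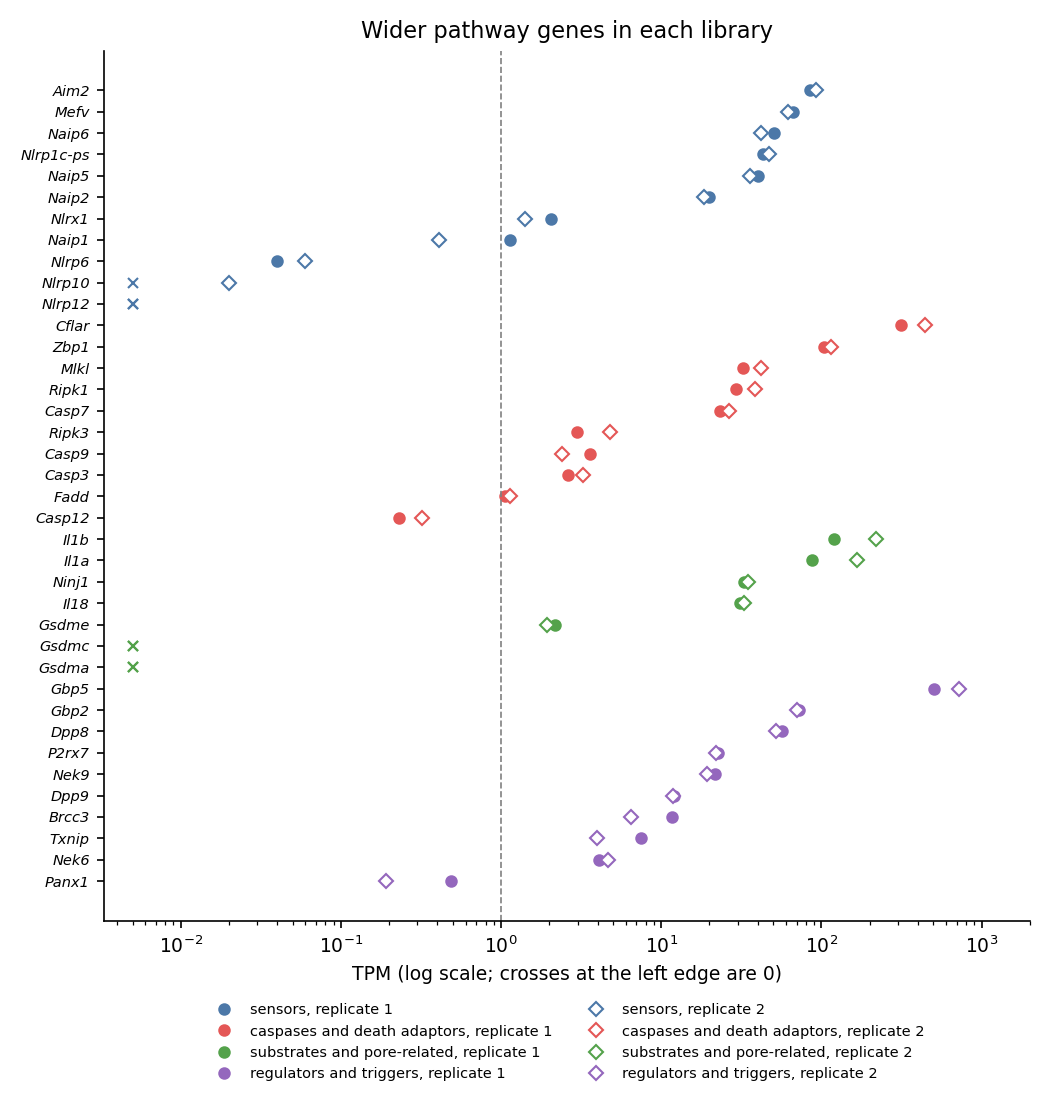
TPM of the wider pathway genes on a log axis, by group, with filled circles for replicate 1 and open diamonds for replicate 2, crosses at the left edge for 0 and a dashed line at 1 TPM. The libraries lie close together for most genes. Gbp5, Cflar, Il1b and Il1a are higher in replicate 2, and Naip1, Brcc3 and Txnip are lower. Panx1 is also drawn lower, but its 17 and 7 counts are too few for a ratio. By the alignment-free program Panx1 had 1.06 and 1.24 TPM.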

How the data were processed

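The 2 libraries form 1 group, so levels and their spread were described and no treatment was tested. The deposited expected counts and TPM per gene and transcript came from transcriptome alignments to mm10 with GENCODE M21, per the submitters' description files, with column names that RSEM writes. The deposited estimated counts and TPM of a second table were made from the reads without alignment, with column names that kallisto writes, and were summed per gene. The programs, their versions and the strand setting were not given in the sources used here. Where genes on both strands overlap, their reads therefore cannot be told apart. The deposited posterior SD of the count, a score of mapping uncertainty, was used as given. TPM were scaled by the authors over all entries, short RNAs included, which lowers the TPM of other genes.

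Gene names and coordinates came from GENCODE M21, which held 55536 of 81881 gene entries, and spike-in and numbered entries were left out. The members and lists were chosen with earlier results of these data known. All 10 members are named. For each group of the wider list the highest 2 and the lowest genes are named, isoforms by their share of TPM, and others were chosen after their values were seen. Irgb10 of the wider list did not match. Expected counts were rounded for scaling by TMM (edgeR 4.0.16) or size factors (DESeq2 1.42.0). Ratios used genes with 10 counts in each library and exact binomial 95% intervals (Clopper-Pearson), which cover counting error only. The scaled ratio was tested on simulated data. Promoter windows came from RefSeq for GRCm38.p6, junctions from GENCODE transcripts, and a start within 10 bases counted as the same. Windows were aligned globally with free end gaps. Protein motifs were not searched. Alternatives were the other program, other scalings and TPM denominators, other limits and leaving out each replicate.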

Additional observations from a re-analysis of the deposited data

How the results depend on the processing

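No log2 ratio between replicates changed sign in any alternative run. By the alignment-free program Nek7 stood above Pycard in mean TPM, the reverse of the alignment-based order, and the decay-annotated share of Nlrc4 was 7.62% in place of 54.1%. The median of the 10 genes was 31.2 TPM by the alignment-free program and 98.1 TPM over protein-coding genes alone, a choice that multiplies every gene of a library by the same number. It ranged from 23.5 to 29.1 TPM when replicate 1 or 2 was left out. At 1.5-fold in place of 2-fold, 2 genes passed between replicates, and at 2-fold 0 passed with DESeq2 size factors, with total counts, without a count minimum and by the alignment-free program. In alternatives chosen after seeing the data, the number past 1.5-fold was 1 with DESeq2 size factors, 1 with total counts (Nlrc4 in both) and 0 by the alignment-free program. In counts in place of TPM, 3 genes differed 2-fold between programs, as did 32.6% of protein-coding genes at 1 TPM, and the median factor over those genes was 1.76 in replicate 1 and 1.71 in replicate 2. The median retained-intron share of the 3 genes with such isoforms was 39.7% by counts, 56.7% by the alignment-free program and 58.7% to 59.3% without either replicate. Among single genes, the retained-intron share of Nek7 was 38.3%, under 50%, by the alignment-free program. The log2 ratio of Nlrc4 was -0.26 and that of Nek7 -0.06 by that program, so the size of both depends on it. At 5 TPM, 7 of the 10 genes and 22 of the wider genes passed. With 43 and 29 counts, Nlrp1a had too few reads for its isoforms or its ratio to be read. No paired analysis was possible because there is 1 group.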
